A study of Mus musculus with 27 samples.

Results

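The insulin-like growth factor (IGF) system was followed through 10 genes in sorted mouse retinal cells: the ligand Igf1, the receptors Igf1r and Igf2r, the IGF-binding proteins Igfbp2, Igfbp3, Igfbp4, Igfbp5, Igfbp6 and Igfbp7, and the binding-protein-like gene Igfbpl1. The genes were chosen by name, and each was read through the array probe set that carries its symbol. All 10 had 1 probe set among the 19301 genes of the array, and 6 of them were among the 12441 genes bright enough to be tested. IGFs are secreted peptides that signal through the receptor tyrosine kinase Igf1r, while Igf2r takes up the related ligand Igf2 and carries it to lysosomes. The binding proteins hold IGFs outside the cell, lengthening their life or keeping them from the receptor, and several also act on cells without an IGF. In the retina, IGF signalling is known for its part in vessel growth and in the survival of neurons and photoreceptors.

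Each of the 27 arrays measured RNA of 200 cells sorted by fluorescence from adult mouse retinas, with 3 arrays in each of 9 groups. Arc amacrine cells, inhibitory interneurons of the inner retina, came from Tg(Arc-EGFP)194Gsat/Mmcd mice, in which the Arc promoter drives GFP; the study names this group an internal control between batches. Cone photoreceptors came from Tg(Chrnb4-EGFP)1Gsat mice, in which the Chrnb4 promoter drives GFP. Starburst amacrine cells, which release acetylcholine, came from crosses of 129S6-Chat_tm1(cre)Lowl/J with Rosa26-LSL-RFP mice, in which Cre made under the Chat locus switches on RFP. The titration ran over pure starburst (200 cells), 150 starburst with 50 cone cells, 100 with 100, 50 with 150, and pure cone (200 cells), and 3 further mixtures held 125 with 75, 43 with 157 and 17 with 183. All 9 groups are labelled with a background that mixes C57BL/6J and the FVB/N-Swiss Webster hybrid, and founders from the public repository carried a recessive mutation that degrades photoreceptors before they were crossed to C57BL/6J. Pools held 2 cone-line retinas and 6 starburst-line retinas. Cell type and mouse line therefore cannot be told apart, and a single line stands for each type.

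The labelled cell types carried their markers, by unlike margins. The vesicular acetylcholine transporter Slc18a3 read 10.6 to 10.8 in pure starburst cells, against 2.81 to 3.56 in pure cones and 2.84 to 3.25 in Arc cells, and Arc itself read 4.46 to 4.58 on the Arc arrays, against 2.79 to 3.63 elsewhere. Chat, whose locus labels the starburst cells, read 3.81 to 4.58 in them, against 2.87 to 3.21 in pure cones. Chrnb4, which drives the cone label, read 3.255 to 4.71 in pure cones, against 2.31 to 3.06 in pure starburst cells. The rod gene Gnat1 read 8.11 to 10.4 in pure cones, 7.42 to 8.49 in pure starburst cells and 6.52 to 7.18 in Arc cells, so none of these was free of rod RNA. Cone markers set 1 array of each cone-rich group apart. Their summed linear level over 9 of 9 genes was 3220, 1770, 3729 and 5121 on the third arrays of the 50 to 150, 43 to 157, 17 to 183 and pure cone groups, against 8920 to 12688 on the other 8 arrays of those groups. The differences of Igfbp6 and Igfbp7 from pure cones, and their slopes over the titration, are given with and without pure cone replicate 3.

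Igfbp2, Igfbp6 and Igfbp7 were the members that differed between cell types. Their RefSeq promoter windows (assembly GRCm38.p6, 300 bases across the annotated start) are printed to set the pair that moved together, Igfbp6 and Igfbp7, beside the one that moved in other cells, Igfbp2. Capitals mark 3 motifs, each searched on both strands. The GC box was searched as GGGCGG. The TATA box was searched as TATAAA. The CCAAT box was searched by the 5 letters of its name.
Igfbp2, chr1:72824230-72824529, plus strand: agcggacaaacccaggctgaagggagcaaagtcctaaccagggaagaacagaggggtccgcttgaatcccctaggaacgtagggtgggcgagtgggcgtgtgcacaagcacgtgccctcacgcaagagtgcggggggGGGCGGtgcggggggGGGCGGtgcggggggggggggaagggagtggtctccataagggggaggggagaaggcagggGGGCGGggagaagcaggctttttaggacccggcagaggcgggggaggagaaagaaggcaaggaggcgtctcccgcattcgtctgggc
Igfbp6, chr15:102143936-102144235, plus strand: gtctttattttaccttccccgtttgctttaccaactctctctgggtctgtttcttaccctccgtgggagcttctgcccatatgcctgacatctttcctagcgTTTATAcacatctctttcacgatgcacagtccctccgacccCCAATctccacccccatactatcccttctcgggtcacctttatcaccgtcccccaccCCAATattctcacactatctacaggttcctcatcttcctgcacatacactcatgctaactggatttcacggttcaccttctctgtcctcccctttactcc
Igfbp7, chr5:77407996-77408295, minus strand: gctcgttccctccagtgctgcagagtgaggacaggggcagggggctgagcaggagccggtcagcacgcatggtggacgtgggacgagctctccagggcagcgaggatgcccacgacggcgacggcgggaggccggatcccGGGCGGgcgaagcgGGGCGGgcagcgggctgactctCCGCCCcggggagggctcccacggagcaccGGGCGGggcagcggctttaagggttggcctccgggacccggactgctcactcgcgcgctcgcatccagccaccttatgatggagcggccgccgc
The pair did not share this window's make-up. The Igfbp7 window was 73.3% G and C with 33 CpG pairs and 4 GC boxes, the Igfbp6 window 49.7% with 8 CpG pairs, 0 GC boxes, 1 TATA box and 2 CCAAT boxes, and the Igfbp2 window 67.0% with 18 CpG pairs and 3 GC boxes. Over all 32817 windows of the table, the median was 52.7% G and C with 7 CpG pairs, and 35.6% held a GC box, 13.6% a TATA box and 37.4% a CCAAT box. The table holds a further Igfbp2 window, from another annotated start, with 0 GC boxes. A SOX core (ACAAAG, in 18.7% of all windows) and a homeodomain core (TAATTA, in 5.3%) had 0 matches in the windows of these 3 genes. The motifs do not overlap in these windows, and a match describes letters only. The TATA match of Igfbp6 reads TTTATA as printed, so it lies on the strand opposite to the gene.

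Values below are log2 probe set values after the authors' normalization, so a difference of 1 is a doubling, and a value of 2.83, the median of all values, marked the dim range. A gene was called when its limma adjusted p (Benjamini-Hochberg over 12441 genes, two-sided) was under 0.05 and its log2 difference was 1 or more in size. Errors of differences are standard errors of 1 fit to the 27 arrays, with n = 3 in each group. The number of arrays limits the precision.

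Igfbp6, a binding protein with a preference for Igf2, was a starburst gene here. It read 3.72, 3.51 and 4.003 on the pure cone arrays, against 8.64, 8.18 and 8.44 on the pure starburst arrays. No array of either group came near the other group. The log2 difference, pure cone minus pure starburst, was -4.68 ± 0.39 (limma adjusted p = 1.9e-08), and -4.81 ± 0.44 without pure cone replicate 3 (1.3e-07). The Arc amacrine arrays read 3.45, 3.65 and 3.70 and were also all below the pure starburst arrays, by -4.82 ± 0.39 (limma adjusted p = 9.5e-09). Between Arc cells and cones, Igfbp6 differed by -0.14 with a 95% interval of -0.94 to 0.66, and was not called (limma adjusted p = 0.867). So 1 of 2 amacrine populations had Igfbp6 at a high level, and the other read like the photoreceptors within that interval.

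Igfbp7, a secreted protein that binds IGFs weakly and lies in the basement membrane of vessels, was also highest in starburst cells, with a wider spread in cones and Arc cells. It read 9.44, 9.51 and 9.66 in pure starburst cells, all above the other types. In pure cones it read 3.39, 3.29 and 6.39, so that the third array was far above its partners. In Arc cells it read 3.87, 4.23 and 5.52. The log2 difference from pure starburst cells was -5.18 ± 0.53 for pure cones (limma adjusted p = 4.2e-07) and -4.997 ± 0.53 for Arc cells (8.5e-07). Fitted on the arrays of the compared groups alone, these were -5.18 ± 0.78 (limma adjusted p = 0.0099) and -4.997 ± 0.39 (4.9e-04). Without pure cone replicate 3 the difference of pure cones was -6.20 ± 0.34 (limma adjusted p = 3.5e-11).

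The third pure cone array also decided the comparison of Arc cells with cones. There Igfbp7 differed by 0.18 ± 0.53 (Arc minus pure cone, limma adjusted p = 0.876) over all arrays, with Arc arrays inside the range of the cone arrays. Without that array the difference was 1.198 ± 0.34 and was called (limma adjusted p = 0.0188), with all Arc arrays above the 2 remaining cone arrays. Some markers of vessel wall cells were also high on that array. The summed linear level of 5 of 5 pericyte and smooth muscle markers was 295.4 on that array, against 30.2 and 28.3 on the other pure cone arrays and 26.6 to 58.4 on the 24 arrays of the other groups. The sum lay mainly in Acta2, the actin of smooth muscle, at 7.93 on that array, against 2.12 and 2.28, and Rgs5, a pericyte gene, at 4.96, against 2.44 and 2.17. The pericyte genes Pdgfrb (2.39 there, against 2.28 and 2.108), Cspg4 and Kcnj8 did not stand out there, and the endothelial sum over 7 of 7 markers was 40.3, against 40.0 and 37.8. The starburst sum over 7 of 7 markers was 97.0, against 59.8 and 55.4, with Slc18a3 at 2.81, in the dim range, and Isl1 at 5.82, against 3.54 and 3.66. Other retinal sums were higher there too. Pan-amacrine markers (7 of 7 measured) summed to 278.1, against 181.2 and 176.2, bipolar markers (5 of 6) to 163.0, against 108.4 and 77.6, and ganglion cell markers (4 of 5) to 69.1, against 38.4 and 29.9. Summed rod markers (8 of 10 measured) were 4106, against 2602 and 2566. The third Arc array, also the highest of its group for Igfbp7, had Acta2 at 2.075, against 2.51 and 2.37. Rgs5 read 2.58 on it, against 3.03 and 2.84, and read 4.52 on pure starburst replicate 1. The part of these markers in the Igfbp7 readings was not tested.

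Igfbp2, one of the main IGF-binding proteins of the nervous system, marked the Arc cells. It read 7.56, 8.06 and 7.52 on the Arc arrays. On the other 24 arrays it lay between 2.86 and 4.52, so that no array of any starburst or cone mixture overlapped with the Arc cells. Pure cones read 4.265, 3.38 and 3.48 and pure starburst cells 3.98, 3.00 and 3.08. The log2 difference was 4.36 ± 0.33 for Arc minus pure starburst (limma adjusted p = 3.5e-09) and 4.003 ± 0.33 for Arc minus pure cone (1.3e-08). Pure cones and pure starburst cells overlapped and differed by 0.36, with a 95% interval of -0.32 to 1.04 (limma adjusted p = 0.543).

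**Figure D1:**
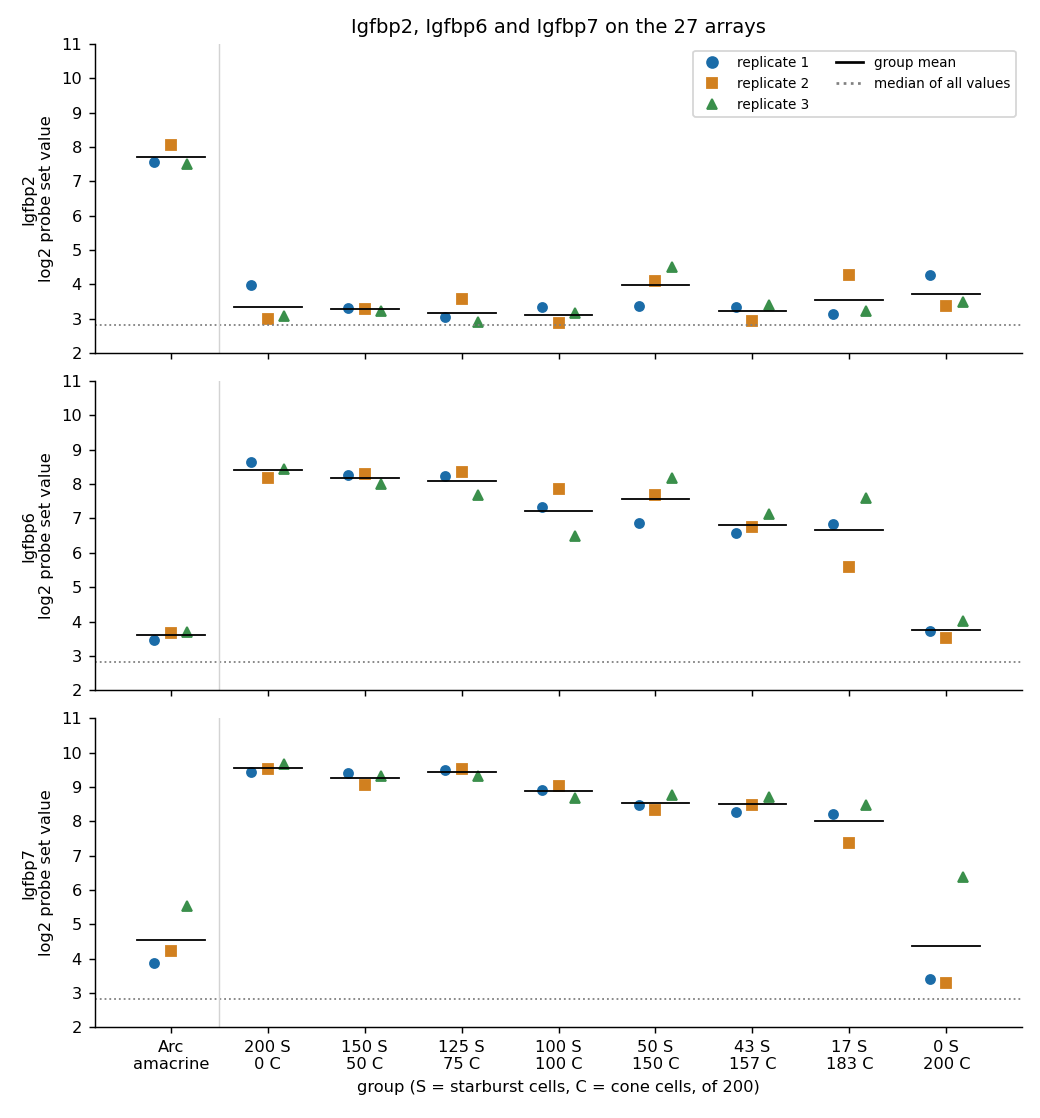
Log2 probe set values (vertical axes) of Igfbp2, Igfbp6 and Igfbp7 on each array, by group, with the Arc cells at the left and the starburst and cone mixtures ordered by cone cells from 0 to 200. Points are arrays, with a shape per replicate number, bars are group means of 3 arrays, and the dotted line is the median of all values (2.83). Igfbp2 is high on the 3 Arc arrays, while Igfbp6 and Igfbp7 stay high in every mixture with starburst cells and are low in Arc cells and pure cones, apart from 1 pure cone array with Igfbp7 at 6.39.

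Counted over the tested members, pure cones against pure starburst cells gave 0 higher and 2 lower of 6, where 8.42% of all tested genes were called. Arc cells against pure starburst cells gave 1 higher and 2 lower of 6, where 3.55% of all genes were called. Arc cells against pure cones gave 1 higher of 6, where 10.3% were called, and 2 higher without pure cone replicate 3. Both comparisons with pure starburst cells share those 3 arrays, and both with Arc cells share theirs. The median log2 difference of the 6 members was -0.06 for pure cone minus pure starburst (all genes, -0.04), -0.06 for Arc minus pure starburst (0.03) and 0.22 for Arc minus pure cone (0.07).

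**Figure D2:**
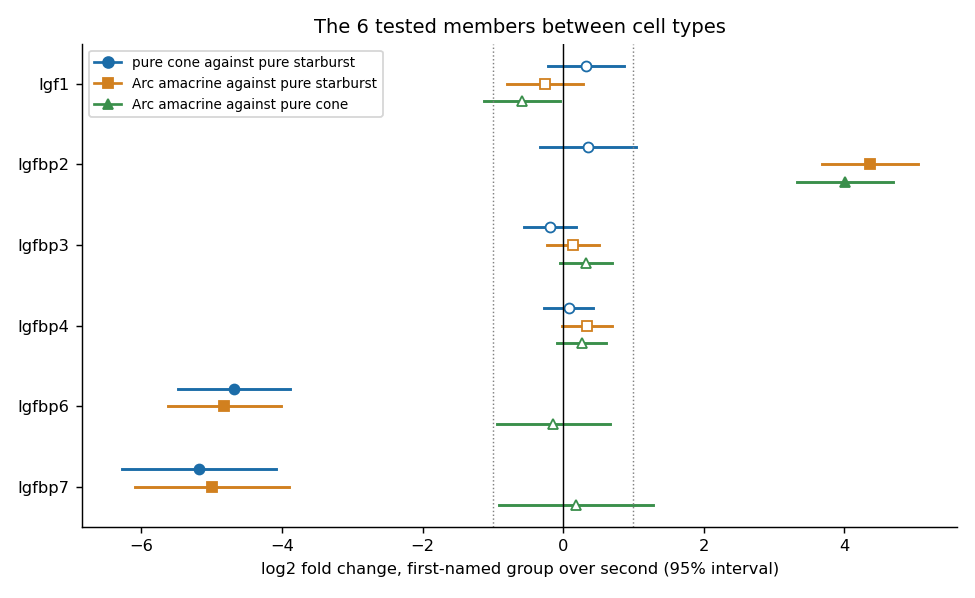
Log2 fold changes with 95% intervals of the 6 tested members, for pure cone over pure starburst, Arc amacrine over pure starburst and Arc amacrine over pure cone, with filled symbols for called differences and dotted lines at -1 and 1. Igfbp6 and Igfbp7 lie near -5 in both comparisons with pure starburst cells, Igfbp2 near 4 in both with Arc cells, and the other intervals cover 0 or end close to it.

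The mixtures show how the members behave when starburst RNA is diluted with cone RNA. Igfbp6 read 8.25, 8.28 and 8.001 at 150 starburst to 50 cone cells, 8.22, 8.35 and 7.69 at 125 to 75, and 7.34, 7.84 and 6.48 at 100 to 100. It read 6.87, 7.67 and 8.19 at 50 to 150, 6.59, 6.75 and 7.12 at 43 to 157, and 6.82, 5.60 and 7.58 at 17 to 183. All 18 mixture arrays lay above all pure cone arrays. By group mean the order was pure starburst, 150 to 50, 125 to 75, 50 to 150, 100 to 100, 43 to 157, 17 to 183, pure cone and Arc. The arrays of neighbours in this order overlapped everywhere except between 17 to 183 and pure cone.

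With only 17 starburst cells among 183 cones, Igfbp6 was 2.93 ± 0.39 above pure cones on the log2 scale (limma adjusted p = 1.0e-04), where 0.731% of all genes were called. The difference from pure cones was 3.08 at 43 to 157 (3.3e-05; 1.54% of all genes called), 3.83 at 50 to 150 (1.2e-06; 1.4%) and 3.48 at 100 to 100 (2.9e-06; 3.11%). Without pure cone replicate 3 these differences were 3.06, 3.21, 3.96 and 3.61, and all were called. When only the arrays of the 2 compared groups entered the fit, the call at 17 to 183 was lost (limma adjusted p = 0.232). Against pure starburst cells, the difference was -0.25 at 150 to 50 (limma adjusted p = 0.990), -0.34 at 125 to 75 (0.907) and -1.20 ± 0.39 at 100 to 100 (0.221), and none was called.

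Igfbp7 stayed between 7.36 and 9.53 on the 18 mixture arrays. It read 9.41, 9.04 and 9.31 at 150 to 50, 9.50, 9.53 and 9.31 at 125 to 75, and 8.90, 9.02 and 8.68 at 100 to 100. It read 8.47, 8.33 and 8.76 at 50 to 150, 8.27, 8.48 and 8.72 at 43 to 157, and 8.22, 7.36 and 8.46 at 17 to 183. The lowest of these arrays, at 7.36, lay above the highest pure cone array, at 6.39. By group mean the order was pure starburst, 125 to 75, 150 to 50, 100 to 100, 50 to 150, 43 to 157, 17 to 183, Arc and pure cone. Neighbouring groups in it overlapped except 150 to 50 with 100 to 100, and 17 to 183 with Arc.

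Against pure cones, Igfbp7 was higher by 3.66 ± 0.53 at 17 to 183 (limma adjusted p = 3.7e-04), 4.13 at 43 to 157 (4.4e-05), 4.16 at 50 to 150 (3.3e-05) and 4.51 at 100 to 100 (6.6e-06). So 2 of 6 tested members, Igfbp6 and Igfbp7, were called in each of these 4 comparisons, which share the pure cone arrays. Fitted on the arrays of the compared groups alone, the limma adjusted p of Igfbp7 was 0.425 at 17 to 183, 0.151 at 43 to 157 and 0.159 at 50 to 150. Without pure cone replicate 3 the differences were 4.68, 5.15, 5.18 and 5.53. Against pure starburst cells, Igfbp7 differed by -0.28 at 150 to 50, -0.09 at 125 to 75 and -0.66 at 100 to 100, with limma adjusted p-values of 0.991, 0.992 and 0.732. In these 3 comparisons limma called 0 of 6 members, with 0, 0 and 1 (Igfbp6) at an unadjusted p under 0.05, and 0.0482%, 0.0482% and 0.418% of all genes (6, 6 and 52 genes, or 20, 11 and 83 with replicate number as a block). The 100 to 100 arrays of Igfbp7 all lay below the pure starburst arrays, and those of Igfbp6 did too.

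Over the 15 titration arrays, the log2 slope for the whole step of cone share, 0 to 200 of 200 cells, was -3.99 ± 0.72 for Igfbp6 (limma adjusted p = 0.0012) and -4.44 ± 0.89 for Igfbp7 (0.0026). Both were called, where 8.2% of all genes were, and the other 4 tested members were not. Without pure cone replicate 3 the slopes were -3.64 ± 0.76 (limma adjusted p = 0.0047) and -4.60 ± 0.99 (0.0054). Igfbp2 had a slope of 0.57 ± 0.31 (limma adjusted p = 0.253). On the linear scale, a quadratic contrast over the titration called 0 members by limma, with Igfbp7 at an unadjusted p of 0.0189 (adjusted p = 0.750) as the 1 member under 0.05, and 0.0241% of all genes; without that array the adjusted p of Igfbp7 was 0.467.

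On the linear scale, a mixture array was placed between the pure cone mean (0%) and the pure starburst mean (100%), as a description without a test. Igfbp7 lay at 81.8% for a stated starburst share of 75%, 93.6% for 62.5%, 61.5% for 50%, 47.4% for 25%, 46.3% for 21.5% and 33.5% ± 13.8 (SD, n = 3) for 8.5%. Igfbp6 lay at 83.3%, 79.2%, 44.2%, 57.3%, 30.4% and 31.4% ± 21.6 in the same groups. With medians of the pure arrays in place of means, which sets the third pure cone array aside for Igfbp7, its positions were 84.1%, 95.7%, 64.0%, 50.1%, 49.0% and 36.4%. Igfbp7 was above the stated share in all 6 mixtures and Igfbp6 in 5 of 6, the exception being 100 to 100. The 175 starburst-high genes, called between the pure groups with a log2 difference of -2 or lower, had median positions of 81.8%, 85.9%, 62.5%, 40.9%, 33.4% and 24.97%, so that the typical starburst gene lay above the stated share as well. Igfbp7 stood just over the upper quartile of these genes at 43 to 157 (45.6%) and inside the quartiles in the other 5 mixtures. At 17 to 183 it was barely under the upper quartile (33.59%). Its position there with medians of the pure arrays (36.4%) was over that value, which itself rests on means. Igfbp6 stood over the upper quartile at 50 to 150 (51.9%) and under the lower one at 100 to 100 (48.7%). A level of a mixture does not tell apart more starburst cells, more RNA per starburst cell and other reasons. Summed cone markers at 150 to 50 read 3821 to 4737. They read 5121 to 12688 in pure cones and 97.3 to 288.6 in pure starburst cells. The reason for the positions was not tested.

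The spread of Igfbp6 within mixtures was wide. At 50 to 150 its positions were 31.0%, 57.2% and 83.8%, and at 17 to 183 they were 30.0%, 10.5% and 53.6%. The highest of each came from the third arrays, on which summed cone markers were lowest. The same held at 43 to 157 (37.8% on the third array, against 24.9% and 28.35%). This did not hold in the starburst-rich mixtures. At 125 to 75 the third array had the lowest cone sum (653, against 3069 and 2927) and the lowest Igfbp6 position (57.9%, against 85.9% and 93.8%). At 150 to 50 it again had both the lowest cone sum (3821, against 4737 and 4165) and the lowest position (73.0%, against 87.6% and 89.5%). At 100 to 100 the third array had the highest cone sum (7472, against 7321 and 6415) and the lowest position (22.7%, against 44.7% and 65.0%). Igfbp7 was highest on the third array at 50 to 150, 43 to 157, 17 to 183 and pure cone, and lowest on it at 125 to 75 (9.31) and 100 to 100 (8.68). At 50 to 150 the third array carried Acta2 at 4.52, against 2.44 and 2.27 on its partners. The part of these differences in the members' spread was not tested.

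**Figure D3:**
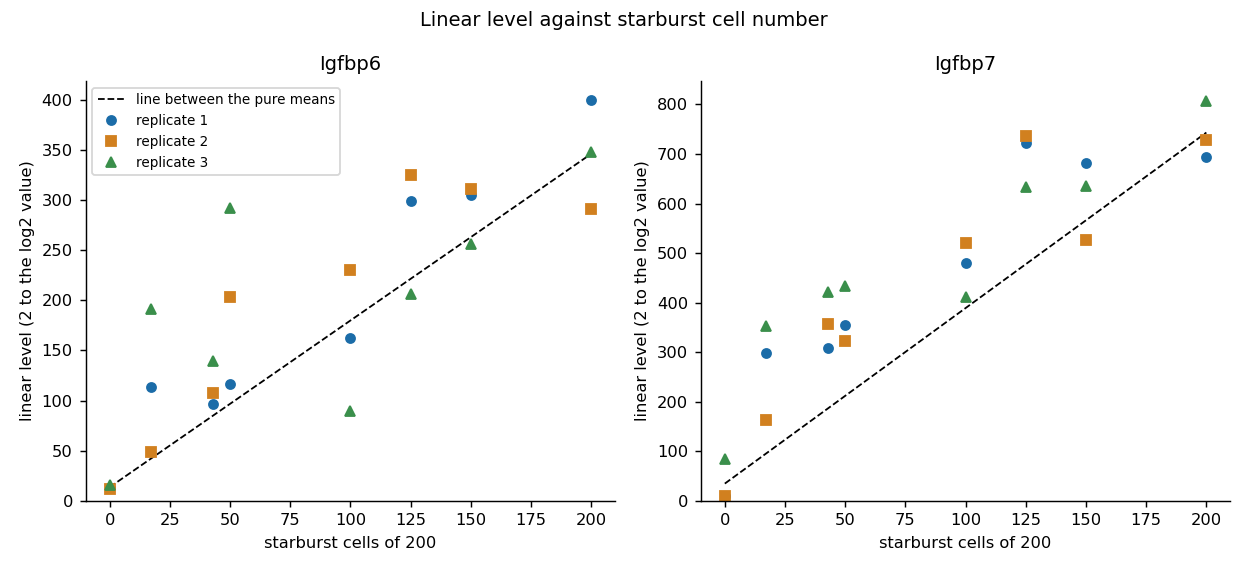
Linear level (2 to the log2 value, vertical axes from 0) of Igfbp6 and Igfbp7 against the number of starburst cells among 200, with 1 point per array and a shape per replicate number. The dashed line joins the pure cone and pure starburst means. At 17, 43 and 50 starburst cells all 9 Igfbp7 points and all 9 Igfbp6 points lie above the line.

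Across the 9 group means, the tested genes whose profile was most like each of these members were found by Pearson's r, as a description of points that share arrays and cells. For Igfbp6 they were the neuropeptide precursor Cck (0.990), Igfbp7 (0.989) and the transcription factor Isl1 (0.984). For Igfbp7 they were the transcription factor Sox2 (0.998), Cck (0.998) and the membrane protein Cmtm8 (0.995), with Igfbp6 at rank 6. Over the 8 groups without Arc cells, r was 0.981 between Igfbp6 and Igfbp7. For Igfbp2 they were the pseudokinase Trib1 (0.992), the protein kinase A subunit Prkar2b (0.991) and the actin-binding Nebl (0.989). These rest on the Arc group, since r over the other 8 groups was 0.783, 0.739 and 0.644.

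The remaining members changed little or were dim, as follows. Igf1, the ligand, lay above the dim range on all 27 arrays, between 3.03 and 4.497. It read 3.31, 3.34 and 3.61 in Arc cells, 3.65, 4.497 and 3.86 in pure cones, and 3.82, 3.61 and 3.61 in pure starburst cells. The Arc arrays lay below the cone arrays, with a log2 difference of -0.58 ± 0.26 that was not called (95% interval -1.13 to -0.04, limma adjusted p = 0.135). Pure cones minus pure starburst cells gave 0.32 with an interval of -0.22 to 0.87 (limma adjusted p = 0.479).

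Igfbp3, the main carrier of IGFs in blood, was above 2.83 on 3 arrays and lay between 2.27 and 3.09 over all 27. Its log2 difference was -0.19 for pure cone minus pure starburst (95% interval -0.56 to 0.18), 0.14 for Arc minus pure starburst (-0.23 to 0.51) and 0.32 for Arc minus pure cone (-0.05 to 0.69). Igfbp4, known as an inhibitor of IGF action that the protease Pappa cuts, was above 2.83 on 10 arrays and lay between 2.43 and 3.24. It read 2.95, 2.95 and 3.00 in Arc cells, against 2.60, 2.75 and 2.52 in pure starburst cells, without overlap, and the difference of 0.34 (-0.01 to 0.69) was not called (limma adjusted p = 0.333). The differences of both genes are near the background and would understate a change of RNA there.

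The other 4 members were under 2.83 on 27 of 27 arrays and were not tested. Igf1r, the signalling receptor, lay between 2.107 and 2.71, and its group means spanned 0.27 on the log2 scale. Igf2r, the receptor for Igf2 and mannose 6-phosphate, lay between 2.05 and 2.46. Igfbp5, the most conserved binding protein, lay between 1.97 and 2.46. Igfbpl1, known from developing neurons, lay between 1.97 and 2.801, with its lowest group mean in pure starburst cells (2.10) and its highest at 43 to 157 (2.59). A dim probe set shows that no signal above the array's typical value was read, not that the RNA is absent.

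**Figure D4:**
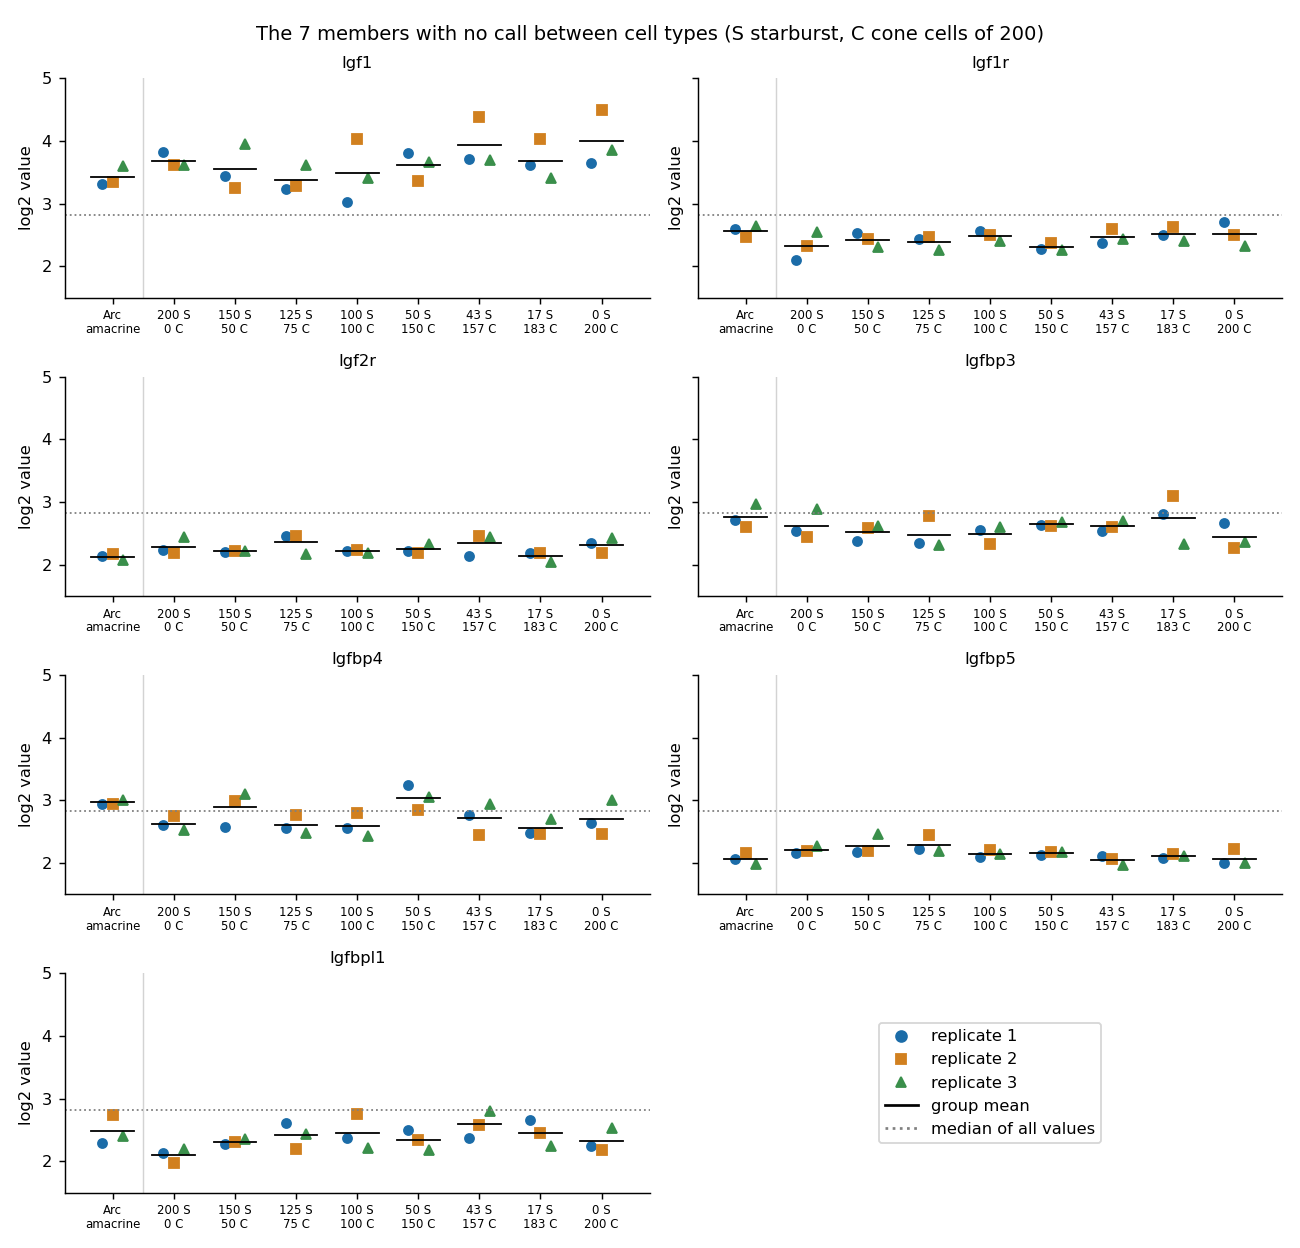
Log2 probe set values of Igf1, Igf1r, Igf2r, Igfbp3, Igfbp4, Igfbp5 and Igfbpl1 on each array (vertical axes from 1.5 to 5), by group, with the Arc cells at the left and the mixtures ordered by cone cells. Points are arrays, bars group means, and the dotted line is at 2.83. Igf1 lies above the line on all arrays, Igfbp3 and Igfbp4 on 3 and 10, and the other genes on 0.

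Other genes of the IGF pathway were read from lists of ligands and receptors, carriers, proteases and their inhibitors, adaptors, and the PI3 kinase, MAP kinase and Igf2 mRNA-binding branches. Of 78 listed genes, 65 were measured and 43 tested. Between pure cones and pure starburst cells 1 was higher, 2 lower and 40 not called. Between Arc cells and pure starburst cells 4 were higher, 1 lower and 38 not called, and between Arc cells and pure cones 6 were higher and 37 not called. Over all tested genes 8.42%, 3.55% and 10.3% were called in these comparisons. The median log2 difference of the 43 genes was -0.01, 0.06 and 0.02, against -0.04, 0.03 and 0.07 over all tested genes.

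Ligands and receptors had 0 of 2 tested genes called by limma in these comparisons (at an unadjusted p under 0.05, 1 gene, Igf2, in pure cones against pure starburst cells and in Arc cells against pure cones). Igf2, the ligand that Igfbp6 prefers, was 0.43 ± 0.12 higher in pure cones than in pure starburst cells, under the fold threshold (limma adjusted p = 0.0236). The insulin receptor Insr differed by 0.32 ± 0.56 for Arc minus pure starburst (limma adjusted p = 0.879). Its other 2 differences were larger in size and not called, with pure cones below both other cell types. The median log2 difference of the 2 tested genes was -0.14 for pure cone minus pure starburst. It was 0.21 for Arc minus pure starburst and 0.34 for Arc minus pure cone.

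The largest difference in the pathway lists was that of Stc1, stanniocalcin, a secreted inhibitor of the proteases that cut IGF-binding proteins. It read 5.85, 6.08 and 6.01 in Arc cells, against 2.46, 2.48 and 2.59 in pure cones and 2.37, 2.15 and 2.40 in pure starburst cells. It was high on all Arc arrays and under 2.83 on all pure cone and pure starburst arrays, with a log2 difference of 3.68 ± 0.14 from pure starburst cells (limma adjusted p = 4.4e-14) and 3.47 ± 0.14 from pure cones (5.8e-13). With both of those groups near the background, the differences would understate the change of RNA. Among the compared groups, Stc1 passed the filter on dim genes only through its Arc arrays. Its target protease Pappa did not differ beyond the threshold (Arc minus pure starburst -0.10 ± 0.19, limma adjusted p = 0.902). Of 7 tested proteases and inhibitors, Stc1 was the 1 called in both comparisons with Arc cells. The shares of all tested genes called there were 3.55% against pure starburst cells and 10.3% against pure cones.

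The adaptors Irs1, which links the receptor to PI3 kinase, and Grb14, which inhibits the insulin receptor, were higher in Arc cells too (2 of 5 tested adaptors). Over all tested genes, 3.55% were called in Arc cells against pure starburst cells and 10.3% against pure cones. Irs1 read 5.97, 6.13 and 6.32 in Arc cells, 4.26, 3.42 and 4.28 in pure cones, and 4.93, 4.19 and 4.42 in pure starburst cells, without overlap. Its log2 difference was 2.16 from pure cones (limma adjusted p = 1.5e-04) and 1.63 from pure starburst cells (0.0060), where it lost its call without the third arrays of all groups (0.109). Grb14 was higher by 1.11 than in pure cones (0.0084) and by 1.46 than in pure starburst cells (0.0021). Those calls were lost on the compared groups alone (limma adjusted p = 0.106 and 0.0528) and without the third arrays (0.135 and 0.0747), and that against cones also without pure cone replicate 2 (0.0559) or Arc replicate 1 (0.0763).

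Htra1, a secreted protease with an IGF-binding domain, followed Igfbp6 and Igfbp7 in part. It was lower in pure cones (4.67, 2.99 and 4.63) than in pure starburst cells (6.29, 5.72 and 5.95), by -1.89 ± 0.37 (limma adjusted p = 0.0011; 0.0516 on the compared groups alone). In Arc cells it read 5.62, 5.22 and 4.85, above cones by 1.13 (limma adjusted p = 0.0379), a call that was lost without pure cone replicate 2 (0.266) and without Arc replicate 1 (0.16) or 2 (0.0851), with no filter on dim genes (0.0517) and on the compared groups alone (0.177).

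Downstream, the transcription factor Foxo1, which Akt keeps out of the nucleus, read 4.34, 4.33 and 3.54 in pure cones, against 2.81, 2.81 and 2.58, in the dim range, in pure starburst cells, a difference of 1.34 ± 0.24 (limma adjusted p = 4.8e-04) against a group near the background. The MAP kinase kinase Map2k1 was lower in pure cones (4.31, 4.51 and 4.80) than in pure starburst cells (5.92, 5.82 and 6.51), by -1.54 (limma adjusted p = 0.0011), and was higher by 1.68 in Arc cells than in pure cones (3.8e-04). Its relative Map2k2 was higher in Arc cells by 1.25 against pure cones (0.0134) and by 1.21 against pure starburst cells (0.0400). The translation repressor Eif4ebp1 was lower in Arc cells than in pure starburst cells by -1.06 (0.0303). Several of these calls were lost when 1 array was left out. Against pure starburst cells, the limma adjusted p of Map2k2 was 0.0842 and 0.204 without pure starburst replicates 1 and 2, and 0.121, 0.0738 and 0.116 without Arc replicates 1, 2 and 3. Against pure cones it was 0.0662 and 0.0934 without pure cone replicates 2 and 3. It was also 0.0532 against pure starburst cells with no filter on dim genes, and 0.0993 against pure cones on the compared groups alone. That of Eif4ebp1 was 0.0685 and 0.139 without pure starburst replicates 2 and 3, and 0.0821, 0.117 and 0.0566 without Arc replicates 1, 2 and 3. With the values quantile-normalized again, Htra1 (0.80), Grb14 (0.87) and Map2k2 (0.89) fell under a log2 difference of 1 between Arc cells and pure cones. The calls of Stc1, Foxo1 and Map2k1 were kept under all alternatives run.

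**Figure D5:**
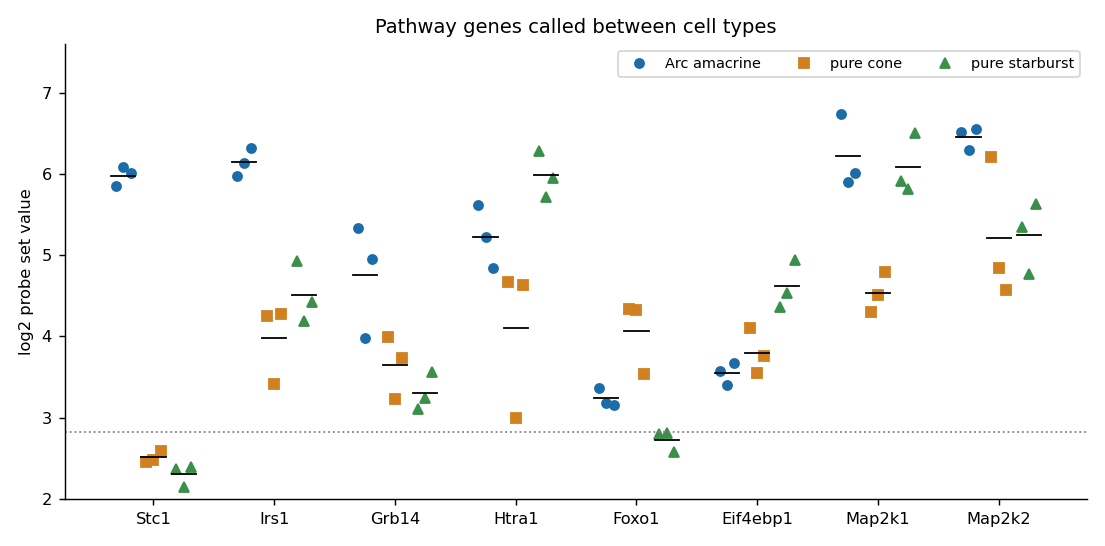
Log2 probe set values of the 8 pathway genes called in at least 1 comparison of cell types, with 3 arrays each of Arc amacrine, pure cone and pure starburst cells, and bars at group means. Stc1 and Irs1 are higher on all Arc arrays than on the others, Foxo1 is higher in pure cones than in pure starburst cells, and the dotted line is the median of all values (2.83).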

How the data were processed

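The authors deposited log2 values for 22347 probe sets on 27 arrays. Per the submitters' processing notes they used RMA (background correction, quantile normalization and summary of probes) in oligo under R 2.11.1, with mm9 as build. Only the 19446 probe sets with 1 gene symbol were used, leaving out 735 with more symbols and 2166 with none. Where a gene had more probe sets (133 of 19301 genes), the brightest on average stood for it. The 12441 genes above 2.83 on at least 3 arrays were tested. Array medians lay between 2.78 and 2.89, and replicates correlated at 0.935 to 0.979, with 0 identical pairs.

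All 27 arrays entered 1 limma 3.58.1 fit (R 4.3.3, lmFit, eBayes, 18 residual and 3.42 prior degrees of freedom). The fit was also run on simulated data with 1 spread per gene over all groups. That run does not cover spreads that differ between groups, such as those of Igfbp7 (SD 1.76 in pure cones, 0.11 in pure starburst cells). The slope and the quadratic contrast used the 15 titration arrays. Genes named besides the members were the 3 closest profiles, pathway genes called between cell types, and checks of the sorted cells. Igf2, Insr, Pappa and the single marker genes were chosen once their values had been seen. The members and all lists were chosen with earlier results of these data known.

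Labels say that the 5 titration mixtures came from different mice each time they were sorted. Same-numbered arrays of different groups deviated together weakly (median r = 0.018, -0.029 to 0.235, over 0.1 in 3 of 30 pairs), and whether a number marks 1 pool across groups is not stated, so the numbers were not taken as pairs. Promoter windows came from RefSeq for 9 of 10 members, and were printed for 3.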

Additional observations from a re-analysis of the deposited data

How the results depend on the processing

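Calls of Igfbp2, Igfbp6 and Igfbp7 between cell types kept direction and side of the threshold under no filter on dim genes, renewed quantile normalization, robust eBayes, the replicate block and each array left out, except Igfbp7 between Arc cells and cones, where 2 members were called without pure cone replicate 3 (range 1 to 2). That uncalled difference (0.18) turned negative with quantile normalization (-0.11) and ranged over left-out arrays from -0.35 without pure cone replicate 2 (-0.30 without replicate 1, -0.31 without Arc replicate 3) to 1.198. Other reversals were of uncalled values near 0: the Igfbp3 slope over 8 groups (0.035) and over left-out arrays (-0.162 to 0.043), the Igfbp4 slope (-0.000 to 0.247), Igfbp4 in cones against starburst cells (-0.128 to 0.198, -0.076 without pure cone replicate 3) and Igfbp7 at 125 to 75 against starburst cells (-0.140 to 0.037). Fits on the compared groups alone kept the calls of Igfbp2, Igfbp6 and Igfbp7 between cell types. The largest limma adjusted p among those calls was 0.0099 (Igfbp7, cones against starburst cells). Such fits called 0, 1 and 1 members against pure cones at 17 to 183, 43 to 157 and 50 to 150. They called 8, 24, 36 and 201 genes in these and the 100 to 100 comparison with pure cones, and 21 and 1 at 150 to 50 and 125 to 75 against pure starburst cells. The replicate block called 20, 11 and 83 genes at 150 to 50, 125 to 75 and 100 to 100 against pure starburst cells, in place of 6, 6 and 52; the labels do not state a pairing of the samples, and the block changed no member's call (Igfbp6, cones against starburst, adjusted p = 7.7e-08). Leaving out arrays gave 3 to 23, 2 to 19 and 32 to 100 genes there, and 0 to 9 genes for the quadratic contrast, which called 6 genes without a trend and 6 with robust eBayes, against 3. Quantile normalization gave 12 genes at 150 to 50. Pathway genes called in Arc cells against pure cones were 3 with quantile normalization and 3 on the compared groups alone, with 3 to 6 over left-out arrays, and against pure starburst cells 1 to 4. With 3 arrays a group and dim signals for 4 members, small differences were not detectable.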
